A study of Mus musculus with 4 samples.

Results

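Capillary-type endothelial cells of the coronary vessels were chosen from droplet single-cell RNA sequencing of mouse ventricles at E14.5 by their own counts of unique molecular identifiers (UMIs). A cell barcode was selected on holding 1000 to 7000 genes, at most 10% mitochondrial UMIs, and less than 0.5% of UMIs from the cardiomyocyte genes *Tnnt2*, *Actc1*, *Tnnc1* and *Ttn*. It also held at least 4 UMIs of the endothelial genes *Pecam1*, *Cdh5*, *Emcn* and *Egfl7*, and at least 0.1% of its UMIs came from *Fabp4*. At most 1 UMI was allowed for each of 3 gene pairs, *Top2a* with *Mki67* (cycling cells), *Gja4* with *Gja5* (arterial cells) and *Nr2f2* with *Dab2* (venous cells). These limits left 419 of 45551 barcodes, and because all of these genes set membership, their levels are described here without a test.

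The controls were Tie2Cre;*Ets1* fl/+ embryos and the *Ets1* eKO group (eKO below) Tie2Cre;*Ets1* fl/fl embryos, with 2 libraries per group and 3 pooled ventricles per library. Both groups carried Tie2Cre, and the controls carried 1 floxed allele, so no group without Cre or with intact alleles enters the comparison. Tie2Cre acts in endothelium and endocardium and also in other lineages that express *Tie2*, such as blood cells. The mice were kept on a C57BL/6 background, embryos of both sexes entered the study without being typed for sex, and the labels give 1 batch. The comparison asks how the transcriptome of capillary-type cells differs when endothelial cells lose both rather than 1 functional allele of *Ets1*.

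Capillary endothelium forms the finest branches of the coronary tree within the compact myocardium and passes oxygen and fatty acids to cardiomyocytes. *Fabp4* binds fatty acids inside the cell, *Gpihbp1* carries lipoprotein lipase to the vessel lumen, *Cldn5* seals tight junctions, and *Rgcc* is a regulator of the cell cycle used as a capillary marker. *Ets1* is a transcription factor of the ETS family, whose members *Erg*, *Fli1* and *Elk3* are also active in endothelial cells.

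The deposited matrices held 124140739 UMIs in 12641 barcodes of control replicate 1 and 76931208 UMIs in 7949 barcodes of control replicate 2. eKO replicate 1 had 95131419 UMIs in 10010 barcodes, and eKO replicate 2 had 102872196 UMIs in 14951 barcodes. Capillary-type cells numbered 93 and 39 in control libraries and 85 and 202 in eKO. They held 815300 and 315126 UMIs in control libraries and 686511 and 1084631 UMIs in eKO. Per cell, the median was 7789 and 7876 UMIs in control libraries and 7471 and 4698 UMIs in eKO, so that eKO replicate 2 was the shallowest library and control replicate 2 the one with the fewest cells. Pairs of libraries shared 19 to 47 barcode sequences, and 0 of these belonged to capillary-type cells in both libraries.

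The libraries also differed in the sex of the cells and in hemoglobin. Of the 93 capillary-type cells of control replicate 1, 72 held UMIs of Y-linked genes and 0 held *Xist* UMIs. In eKO replicate 2, 161 of 202 cells held *Xist* without Y-linked UMIs and 1 held Y-linked UMIs without *Xist*. Control replicate 2 had 18 cells with *Xist* alone and 17 with Y-linked UMIs alone, and eKO replicate 1 had 27 and 31. Male cells therefore prevailed in 1 control library and female cells in 1 eKO library, and the effect of sex on the comparison was tested only with sex as a term in the fit. *Hba* and *Hbb* genes made up 173 and 85.7 counts per 1e6 UMIs (CPM) in control libraries, 189 CPM in eKO replicate 1 and 18540 CPM in eKO replicate 2. In that library 7 cells with at least 1% hemoglobin held 19847 of the 20109 hemoglobin UMIs, and without them the level was 256 CPM. No doublet caller was run, and the comparison was repeated without these 7 cells and without the 10% of cells with the most UMIs in each library.

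The markers that the rule did not use were present in the sums of all 4 libraries. *Cldn5* was at 428 and 378 CPM in control libraries and 226 and 242 CPM in eKO libraries. It was at 8.58 to 23.2 CPM in a class of 4412 endothelial cells with *Fabp4* below 0.1% of UMIs (*Fabp4*-low). This class does not hold all of the other endothelial cells. Control replicate 1 had 1677 endothelial cells, with 401 *Fabp4*-high and 1062 in this class, and what left out the rest is not given here. *Rgcc* stood at 261 and 111 CPM in control libraries and 168 and 144 CPM in eKO libraries, against 1.42 to 2.997 CPM in the *Fabp4*-low cells. *Gpihbp1* was at 128 to 375 CPM, against 4.81 to 8.79 CPM in *Fabp4*-low cells. Each of the markers was thus at least 10 times higher than in *Fabp4*-low endothelium in every library. Cardiomyocytes were taken as barcodes with at least 2% of UMIs from the cardiomyocyte genes and no UMI of the endothelial genes of the rule. They held at most 0.352 CPM of *Cldn5* and 2.92 CPM of *Rgcc*. Coronary cells left out for 2 or more UMIs of the cycling pair, or of the arterial or venous pair, held these markers too. The cycling cells had 167 to 300 CPM of *Cldn5*, 104 to 225 CPM of *Gpihbp1* and 129 to 216 CPM of *Rgcc*. The arterial- or venous-leaning cells had 264 to 450, 114 to 180 and 32.7 to 125 CPM of these genes. These ranges overlapped those of capillary-type cells. *Fabp4* itself, which set membership, was at 8543 and 6112 CPM in control libraries and 8092 and 9148 CPM in eKO libraries.

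**Figure D1:**
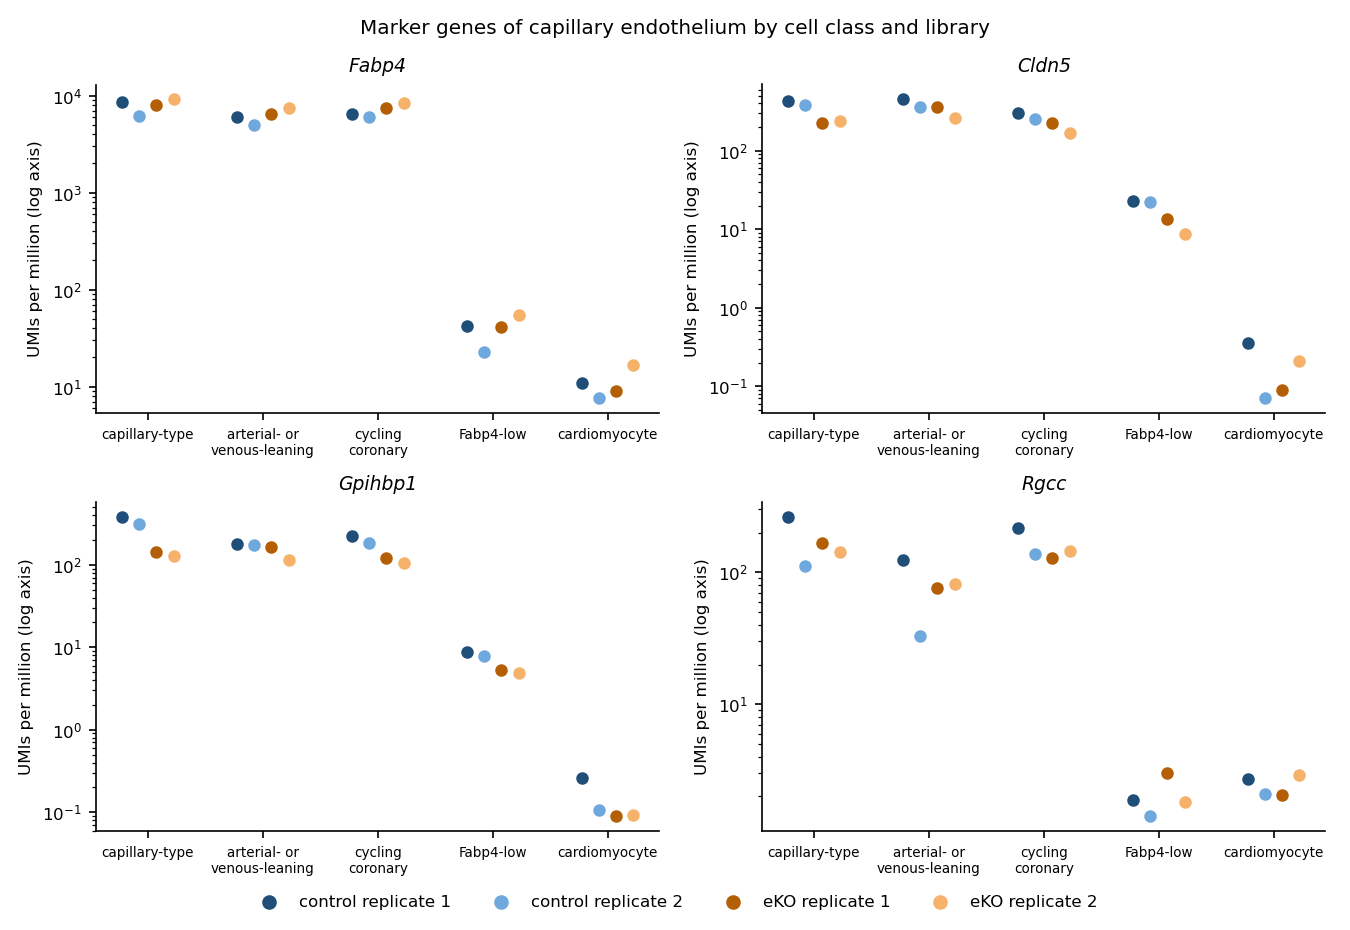
Level of *Fabp4*, *Cldn5*, *Gpihbp1* and *Rgcc* in CPM (log axis) in capillary-type cells, in 3 other endothelial classes and in cardiomyocytes, with 1 point per library (blue, controls; orange, eKO). *Cldn5*, *Gpihbp1* and *Rgcc* lie far above *Fabp4*-low endothelium in every library of the coronary classes, and *Fabp4* does so because it set the classes.

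Single cells carried these markers unevenly. After each cell was thinned to 2000 UMIs, *Cldn5* was found in 54.8% and 56.4% of capillary-type cells of the controls and in 31.0% and 37.1% of those of eKO. *Gpihbp1* was found in 52.7% and 38.5% of cells from controls, against 21.4% and 20.8% of eKO cells, and *Rgcc* in 36.6% and 12.8% against 27.4% and 20.8%. Cardiomyocytes, which should lack these genes, gave at most 0.105% for *Cldn5*, 0.0786% for *Gpihbp1* and 0.576% for *Rgcc* at the same depth, from unthinned medians of 8348 to 13587 UMIs. Barcodes with any UMI of the endothelial genes of the rule had been left out of that class. Part of any endothelial background was thus removed in advance, and these shares may understate it. Without thinning, the shares for *Cldn5* were 87.1% and 87.2% in control libraries and 69.4% and 58.9% in eKO, for *Gpihbp1* 77.4%, 71.8%, 54.1% and 33.2%, and for *Rgcc* 61.3%, 43.6%, 49.4% and 35.6%. Thinning left out 1 cell of eKO replicate 1 and 5 cells of eKO replicate 2 as too shallow. None of the 3 markers was found at 2000 UMIs in 16.1% and 28.2% of the cells of control libraries, against 40.5% and 43.7% of eKO cells, so the marker shares describe cells that the rule had already accepted through *Fabp4*.

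Many cells lay near the limits of the rule. Just inside the *Fabp4* limit, 40 cells had 0.1% to 0.2% of UMIs from *Fabp4*, and just outside it 38 had 0.05% to 0.1%. Of the accepted cells, 105 held 1 UMI of *Top2a* or *Mki67*, 56 held 1 UMI of *Gja4* or *Gja5*, and 145 held 1 UMI of *Nr2f2* or *Dab2*. Cells left out by a single further UMI numbered 44, 40 and 74 for these pairs. For the endothelial genes, 37 cells had 4 or 5 UMIs and 29 had 2 or 3, and for the cardiomyocyte genes 13 cells were at 0.2% to 0.5% and 7 at 0.5% to 1%.

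Because the limits on single UMIs act more strongly in deep cells, the share of capillary-type cells depended on depth. Among *Fabp4*-high endothelial cells the share was 23.2% (exact 95% binomial interval 19.1 to 27.6) and 18.4% (13.4 to 24.3) in control libraries. In eKO it was 25.6% (21.0 to 30.7) and 33.8% (30.0 to 37.7). After all cells were thinned to 3000 UMIs and the rule applied again, 187 of 338 (55.3%) and 93 of 182 (51.1%) control cells met it, with intervals of 49.9 to 60.7 and 43.6 to 58.6. In eKO these were 152 of 278 (54.7%) and 260 of 485 (53.6%), with intervals of 48.6 to 60.6 and 49.1 to 58.1. The 4 intervals overlapped at equal depth, and they cover counting error only. Thinning left out 59 and 28 shallow endothelial cells of the controls and 49 and 371 of eKO. These shares are a description, since the genes of the rule may themselves differ between the groups.

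**Figure D2:**
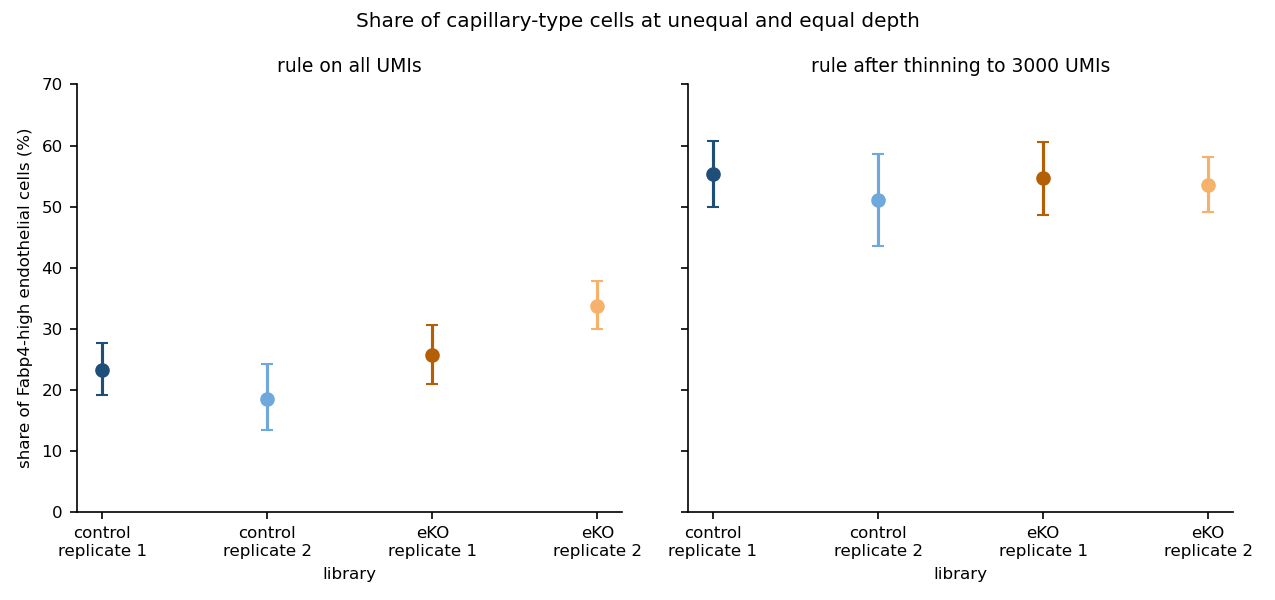
Share of capillary-type cells among *Fabp4*-high endothelial cells (percent, vertical axis) in each library, with the rule applied to all UMIs (left) and after thinning every cell to 3000 UMIs (right). Bars are exact 95% binomial intervals; the shares range from 18.4% to 33.8% on the left and from 51.1% to 55.3% on the right.

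The cells shared high levels of further genes that the rule did not use. With a mean of at least 100 CPM and a level at least 10 times that of *Fabp4*-low endothelium in each library, 16 genes stood out, the markers *Cldn5*, *Gpihbp1* and *Rgcc* among them, a list chosen after the values were seen and given without a test. *Prnd*, a relative of the prion protein, was at 190 and 171 CPM in control libraries and 274 and 188 CPM in eKO libraries. *Sparcl1*, a matricellular protein, was at 951 and 787 CPM in control libraries and 801 and 816 CPM in eKO libraries, and *Dach1*, a transcription factor of coronary endothelium, at 390, 416, 583 and 295 CPM. The libraries of the groups overlapped for these 3 genes and for *Cd36*. *Cd36*, a fatty acid receptor, was at 267 and 178 CPM against 230 and 237 CPM, and *Pdgfb*, the ligand that recruits mural cells, at 179 and 181 CPM against 165 and 119 CPM. Of the 16 genes, 6 had groups that did not overlap (as was the case for 36.9% of all genes tested): *Cldn5*, *Gpihbp1*, *Piezo2*, *Pdgfb*, *Tmem255a* and *Btnl9*. These were lower in both eKO libraries than in either control, *Piezo2* with 288 and 333 CPM against 255 and 167 CPM, *Tmem255a* with 216 and 225 CPM against 121 and 124 CPM and *Btnl9* with 126 and 159 CPM against 85.9 and 86.7 CPM.

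*Ets1* (ENSMUSG00000032035, chromosome 9 from 32636221 to 32757820, GRCm38) was at 363 and 352 CPM in the capillary-type cells of the controls and at 175 and 135 CPM in those of eKO. Both eKO libraries lay below both controls. The log2 change was -1.16 (standard error 0.20), with adjusted p = 0.0208 by the edgeR quasi-likelihood test, Benjamini-Hochberg adjusted, and it was negative in all 16 alternatives (-1.34 to -0.85). The call was lost with DESeq2 (-1.16), with sex as a term (-0.92), with 0 UMIs allowed for the cycling, arterial and venous pairs (-1.12), without the cells of most UMIs (-1.04) and after thinning to 2000 UMIs (-0.85). Which exons carry the loxP sites is not given in the sources used here, and counts from a 3' kit hold no position within the gene. Transcription of the deleted part can therefore not be read from the UMIs that are left.

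Counts were summed per library, and 7644 genes outside the rule were tested. Of these, 10 (0.131%) were past the adjusted threshold of 0.05, 7 (0.0916%) higher and 3 (0.0392%) lower in eKO. At an unadjusted p below 0.05 there were 524 genes (6.86%), 262 higher and 262 lower, and for 2817 genes (36.9%) the libraries of the groups did not overlap. These 6.86% are the share beside which the unadjusted counts of the gene lists below stand. The p-values measure the spread between libraries of pooled embryos. The count depended strongly on the libraries: leaving out control replicate 1 gave 24 calls, control replicate 2 gave 52, eKO replicate 1 gave 109 and eKO replicate 2 gave 60. All 10 genes stayed past the threshold without control replicate 2, eKO replicate 1 or eKO replicate 2, and 8 of them without control replicate 1. DESeq2 gave 4 calls, all among the 10 and none in addition, and the fit with sex as a term gave 4 calls, also among the 10.

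**Figure D3:**
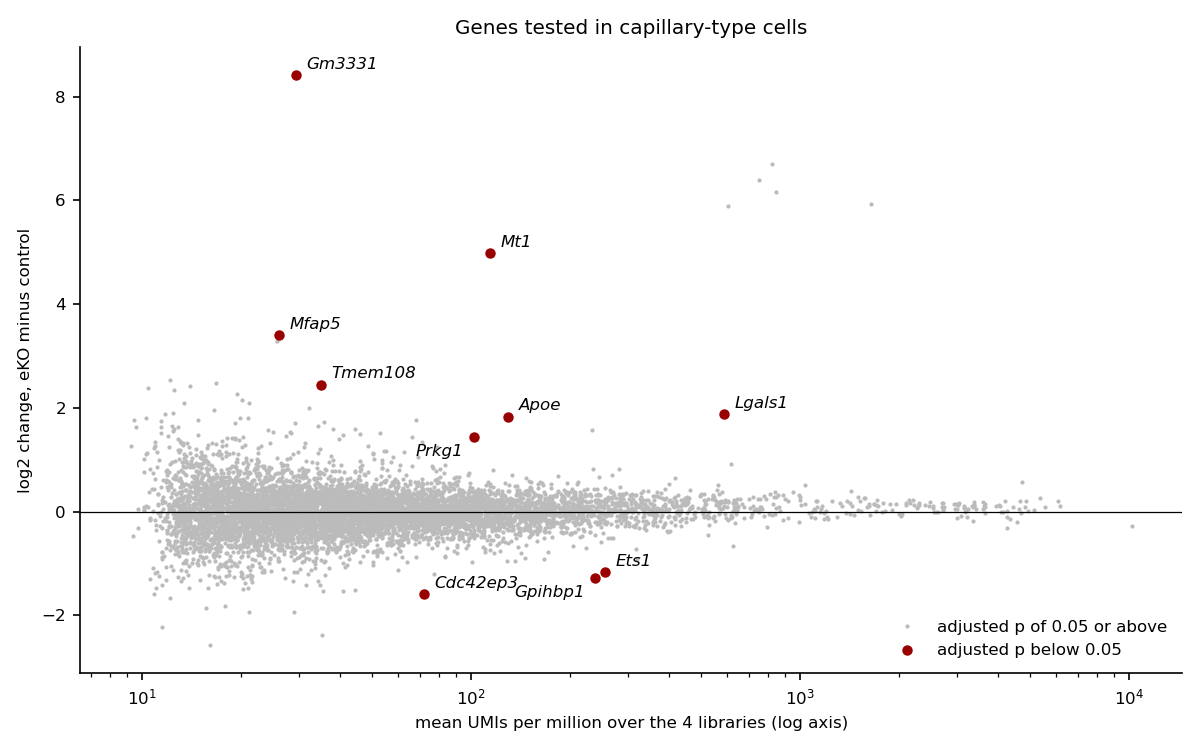
Log2 change (eKO minus control, vertical axis) against the mean level in CPM (log axis) for the 7644 genes tested in capillary-type cells. Red points with names are the 10 genes past the adjusted threshold, and grey points are the other genes; the 5 unnamed grey points near the top right are hemoglobin genes, which come mostly from 7 cells of eKO replicate 2.

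The clearest change was in *Mt1* (ENSMUSG00000031765, chromosome 8 from 94179082 to 94180327), a metallothionein that binds zinc and copper. It was at 7.36 and 6.35 CPM in control libraries and at 256 and 187 CPM in eKO libraries. The eKO libraries stood far above both controls, with a log2 change of 4.98 (standard error 0.35) and adjusted p = 8.42e-07 by the edgeR quasi-likelihood test, Benjamini-Hochberg adjusted. *Fabp4*-low endothelium had 17.2 and 10.4 CPM in control libraries and 265 and 236 CPM in eKO libraries, and arterial- or venous-leaning cells had 4.21 and 5.69 CPM against 311 and 191 CPM. In cardiomyocytes the groups overlapped, at 215 and 228 CPM in control libraries and 362 and 193 CPM in eKO libraries. The change in *Mt1* was past the threshold in all 16 alternatives, with log2 changes from 4.64 to 5.43.

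*Lgals1* (ENSMUSG00000068220, chromosome 15 from 78926725 to 78930465) encodes galectin-1, a lectin that binds sugar chains at the cell surface. It was at 248 and 273 CPM in control libraries and at 899 and 931 CPM in eKO libraries. The libraries within each group were close together and the groups lay apart. The log2 change was 1.88 (standard error 0.21), with adjusted p = 0.00031 by the edgeR quasi-likelihood test, Benjamini-Hochberg adjusted, and the call held in all 16 alternatives (1.67 to 2.00). The *Fabp4*-low cells had 267 and 346 CPM of *Lgals1* in control libraries and 753 and 891 CPM in eKO libraries, while cardiomyocytes had 344 and 315 CPM against 412 and 442 CPM.

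*Gm3331* (ENSMUSG00000099148), a gene model without a known function, had 0 UMIs in both control libraries and was at 68.5 and 48.9 CPM in eKO libraries. It is named here after its values were seen, since it was the only called gene that the rule for named genes left out. Against a floor of 3 counts over the 1130426 UMIs of both controls, it was at least 21.3-fold higher in eKO, with adjusted p = 0.00031 by the edgeR quasi-likelihood test, Benjamini-Hochberg adjusted. The call was lost after thinning to 2000 UMIs. Its GENCODE position is chromosome 9 from 32813734 to 32834104, which starts 55913 bases beyond the end of *Ets1*; its 3 start sites in RefSeq lie nearer, about 25325 to 31796 bases beyond that end. In *Fabp4*-low endothelium it was at 1.17 and 1.26 CPM in control libraries and 61.1 and 53.8 CPM in eKO libraries, and in cardiomyocytes at 0, 0, 0.179 and 0.161 CPM. Whether its UMIs come from transcripts that begin at *Ets1* was not tested.

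*Mfap5*, a glycoprotein of extracellular microfibrils, was at 3.68 and 6.35 CPM in control libraries and at 51.0 and 43.3 CPM in eKO libraries. Other endothelial classes had more *Mfap5* in eKO too, with 152 and 126 CPM in control libraries and 273 and 284 CPM in eKO libraries in *Fabp4*-low cells, and 20.3 and 22.8 CPM against 61.9 and 46.6 CPM in arterial- or venous-leaning cells. The change in capillary-type cells exceeded that in *Fabp4*-low cells by 2.44 (standard error 0.50), with adjusted p = 0.00883 by the edgeR quasi-likelihood test, Benjamini-Hochberg adjusted. This difference was not called with DESeq2 (2.45), without control replicate 1 (1.77) or with the rule after thinning to 3000 UMIs (0.60), and that from arterial- or venous-leaning cells (2.00) was not called. In capillary-type cells both eKO libraries were higher, with a log2 change of 3.40 (standard error 0.48) and adjusted p = 0.00472 by the edgeR quasi-likelihood test, Benjamini-Hochberg adjusted. At 2000 UMIs per cell *Mfap5* was found in 0% of cells of both controls and in 7.14% and 6.09% of eKO cells, from median depths of 7789, 7876, 7471 and 4698 UMIs. Cardiomyocytes gave at most 0.126%, from medians of 8348 to 13587 UMIs. Without thinning the shares in capillary-type cells were 3.23%, 5.13%, 17.6% and 11.4%. The UMIs numbered 3 in 3 cells and 2 in 2 cells of the controls, and 35 in 15 cells and 47 in 23 cells of eKO. A single cell of eKO replicate 1 held 15 of its 35 UMIs, and in eKO replicate 2 the most in 1 cell was 7. The call was lost with DESeq2 (3.43), with *Fabp4* at 0.3% of UMIs or more (2.17) and with the rule applied after thinning to 3000 UMIs (1.67).

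*Apoe* (ENSMUSG00000002985, chromosome 7 from 19696109 to 19699188), a lipid-carrying apolipoprotein, was at 77.3 and 31.7 CPM in control libraries and at 135 and 276 CPM in eKO libraries. The eKO libraries were the higher ones but differed from each other. In *Fabp4*-low cells *Apoe* was at 2071 and 1813 CPM in control libraries and 2209 and 2504 CPM in eKO libraries. In arterial- or venous-leaning cells it was at 137 and 132 CPM against 469 and 327 CPM, and its change there differed from that in capillary-type cells by 0.21 (standard error 0.35), which was not called. From the change in *Fabp4*-low cells it differed by 1.49 (standard error 0.24), with adjusted p = 0.000366 by the edgeR quasi-likelihood test, Benjamini-Hochberg adjusted. That difference was not called with DESeq2 (1.64) or without eKO replicate 2 (0.97), and it was 2.35 without control replicate 1 and 0.94 with the rule after thinning to 3000 UMIs, both called. The UMIs lay in a minority of capillary-type cells: 63 UMIs in 22 cells and 10 in 8 cells of the controls, and 93 in 22 cells and 299 in 52 cells of eKO. Found in 23.7% and 20.5% of cells from controls and 25.9% and 25.7% of eKO cells without thinning, *Apoe* was found at 2000 UMIs in 12.9%, 12.8%, 13.1% and 18.8%, with 0, 0, 1 and 5 cells left out as too shallow (median depths 7789, 7876, 7471 and 4698 UMIs). In cardiomyocytes it was found at 2000 UMIs in 9.77%, 8.64%, 9.62% and 12.5% and without thinning in 37.5% to 42.7%, from medians of 8348 to 13587 UMIs. The log2 change was 1.83 (standard error 0.34), with adjusted p = 0.0439 by the edgeR quasi-likelihood test, Benjamini-Hochberg adjusted. The call was ended by 6 alternatives, DESeq2 (1.95), total-count scaling (1.77), sex as a term (1.63), *Fabp4* at 0.3% or more (1.61), leaving out the cells of most UMIs (1.78) and thinning to 2000 UMIs (1.46). The value was 2.77 without control replicate 1 and 1.18 without eKO replicate 2, both still called, and 3.18 with 0 UMIs of the cycling, arterial and venous pairs.

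*Tmem108* and *Prkg1* were called at levels far below those of *Fabp4*-low endothelium, the class that holds endocardial cells. *Tmem108*, a transmembrane protein, was at 12.3 and 9.52 CPM in the capillary-type cells of the controls and at 49.5 and 69.1 CPM in those of eKO. Both eKO libraries were higher, with a log2 change of 2.45 (standard error 0.38) and adjusted p = 0.0097 by the edgeR quasi-likelihood test, Benjamini-Hochberg adjusted. *Prkg1*, a protein kinase activated by cyclic GMP, was at 63.8 and 44.4 CPM in control libraries and at 168 and 132 CPM in eKO libraries. It was also higher in both eKO libraries, with a log2 change of 1.43 (standard error 0.25) and adjusted p = 0.0208 by the edgeR quasi-likelihood test, Benjamini-Hochberg adjusted. *Fabp4*-low cells held 952 to 1370 CPM of *Tmem108* and 1316 to 1544 CPM of *Prkg1*. Cardiomyocytes also exceeded capillary-type cells, with 97.1, 132, 97.7 and 89.2 CPM of *Tmem108* and 618, 629, 497 and 386 CPM of *Prkg1*.

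Few capillary-type cells carried *Tmem108*, with 10 UMIs in 5 cells and 3 in 3 cells of the controls, and 34 in 5 cells and 75 in 23 cells of eKO. Without thinning these were 5.38% and 7.69% of cells from controls and 5.88% and 11.4% of eKO cells. At 2000 UMIs the shares were 0%, 0%, 5.95% and 7.61%, with 0, 0, 1 and 5 cells left out as too shallow (median depths 7789, 7876, 7471 and 4698 UMIs). In cardiomyocytes *Tmem108* was found at 2000 UMIs in 16.03%, 19.4%, 14.3% and 14.7% and without thinning in 42.0% to 59.7%, from medians of 8348 to 13587 UMIs.

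The changes of *Tmem108* and *Prkg1* depended on how the cells were chosen. When the rule was applied after thinning all cells to 3000 UMIs, which took in 692 cells, the log2 change of *Tmem108* was 0.27 and that of *Prkg1* 0.42, and both calls were lost. *Tmem108* was also not called with DESeq2 (2.47) or with sex as a term (2.46). *Prkg1* was not called with DESeq2 (1.48), total-count scaling (1.38), *Fabp4* at 0.3% or more (1.17), 0 UMIs of the cycling, arterial and venous pairs (0.80), without the cells of most UMIs (1.19) or after thinning to 2000 UMIs (1.21).

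Of 12 endocardial marker genes, 7 could be tested. Apart from *Tmem108*, *Npr3*, the clearance receptor for natriuretic peptides, had 8.59 and 3.17 CPM in control libraries and 35.0 and 31.3 CPM in eKO libraries, and the cadherin *Cdh11* had 17.2 and 6.35 CPM against 46.6 and 59.0 CPM. Their log2 changes were 2.26 and 1.99, with adjusted p = 0.085 and 0.056 by the edgeR quasi-likelihood test, Benjamini-Hochberg adjusted, and so neither passed. *Cdh11* was called in 8 of 12 alternatives, among them without control replicate 1 (3.09), control replicate 2 (1.69), eKO replicate 1 (2.14) or eKO replicate 2 (1.78), and *Npr3* in 4 of 12, among them without control replicate 2 (1.98) or eKO replicate 1 (2.21). Over the list, 5 of the 7 values were positive with a median of 1.63, against a median of 0.00 over all genes tested, and 4 were higher at an unadjusted p below 0.05. The summed level of all 12 genes was 144 and 82.5 CPM in control libraries and 242 and 295 CPM in eKO libraries, and the most abundant by the mean of the libraries was *Tmem108*. None of the 12 was at 0 in all libraries. In *Fabp4*-low cells the sum was 5123 and 4985 CPM in control libraries and 4301 and 3784 CPM in eKO libraries. The part of endocardial cells or of their free RNA in the changes of capillary-type cells was not tested.

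The genes that fell were *Gpihbp1*, *Ets1* and *Cdc42ep3*. *Gpihbp1* (ENSMUSG00000022579, chromosome 15 from 75596628 to 75599481) was at 375 and 308 CPM in control libraries and at 144 and 128 CPM in eKO libraries. The eKO libraries lay close together, below both controls. The log2 change was -1.29 (standard error 0.20), with adjusted p = 0.00887 by the edgeR quasi-likelihood test, Benjamini-Hochberg adjusted. The call was lost without control replicate 1 (-1.13), with sex as a term (-0.97), with 0 UMIs of the cycling, arterial and venous pairs (-0.93), without the cells of most UMIs (-1.05) and with the rule after thinning to 3000 UMIs (-0.81). *Cdc42ep3*, an effector of the small GTPase Cdc42 that acts on the cytoskeleton, was at 131 and 85.7 CPM in control libraries and at 33.5 and 37.8 CPM in eKO libraries. It too was lower in both eKO libraries, with a log2 change of -1.60 (standard error 0.27) and adjusted p = 0.0208 by the edgeR quasi-likelihood test, Benjamini-Hochberg adjusted. This call was lost without control replicate 1 (-1.19), with DESeq2 (-1.56), with sex as a term (-1.44), with 0 UMIs of the pairs (-1.08) and after thinning to 2000 UMIs (-1.90).

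**Figure D4:**
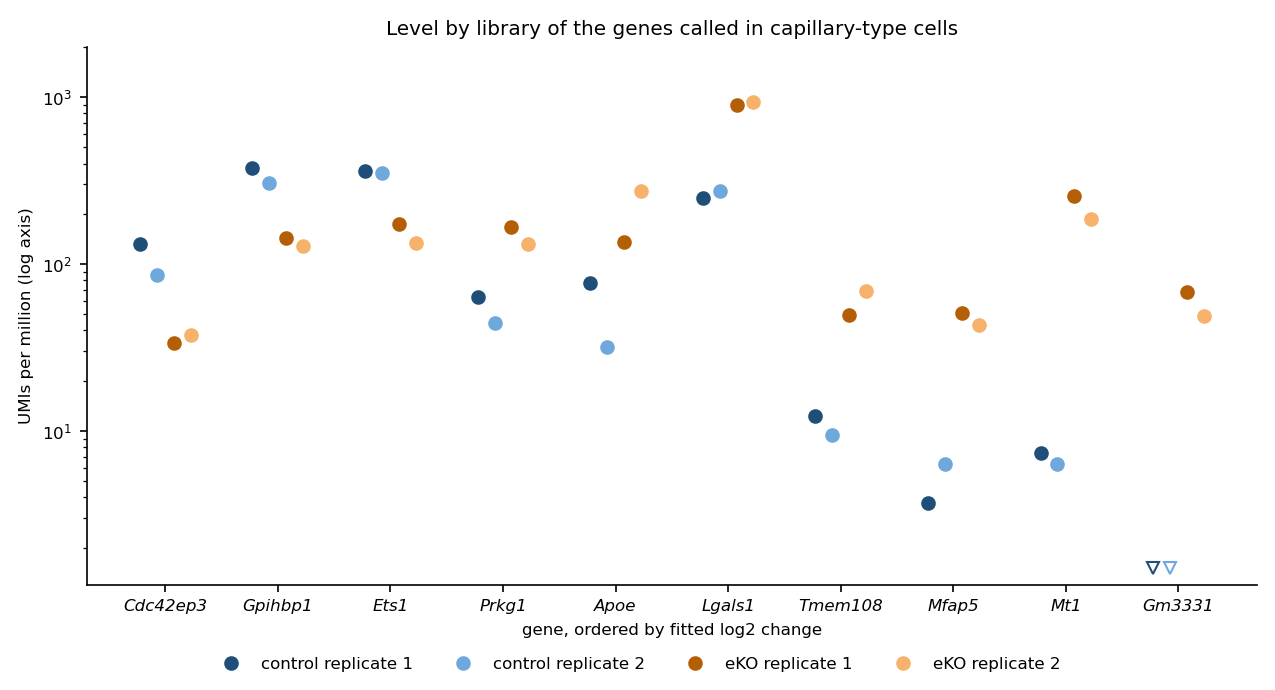
Level in CPM (log axis) of the 10 genes past the adjusted threshold in capillary-type cells, with 1 point per library (blue, controls; orange, eKO); open triangles mark libraries with 0 UMIs. For every gene the eKO libraries lie on 1 side of both controls, as the choice of called genes makes likely; *Apoe* has the widest gap between eKO libraries, at 135 and 276.

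Among 13 tested genes of a fatty acid list, 8 values were positive and 5 negative, with a median of 0.07. At an unadjusted p below 0.05, 1 was higher and 1 lower, and *Gpihbp1* was the only call. *Fabp5*, a fatty acid binding protein, was at 3691 and 4084 CPM in control libraries and 5056 and 6017 CPM in eKO libraries (log2 change 0.57, standard error 0.17; called without eKO replicate 1 at 0.70). Of 15 tested capillary identity genes, 10 values were positive and 5 negative (median 0.09), with 2 higher and 2 lower at an unadjusted p below 0.05 (26.7%), and again with *Gpihbp1* as the only call. *Plvap*, which forms the diaphragms of fenestrae, was at 13.5 and 19.04 CPM against 26.2 and 50.7 CPM. Its log2 change of 1.45 did not pass, except without eKO replicate 1 (1.80), and lay between 0.83 and 1.80 over 12 alternatives.

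Junction genes mostly had values below 0, without a call. Of 19 tested genes, 15 were negative and 4 positive, with a median of -0.24, and 2 were below an unadjusted p of 0.05, against 6.86% of all genes. *Cldn5*, with the levels given above, had both eKO libraries below both controls. Its log2 change was -0.73 (standard error 0.20), with adjusted p = 0.23 by the edgeR quasi-likelihood test, Benjamini-Hochberg adjusted, and so it did not pass. It was called in 1 of 16 alternatives, without eKO replicate 2 (-0.80). *Rgcc* had overlapping groups and a log2 change of -0.30 that turned to 0.53 without control replicate 1. *Ctnnd1*, the catenin p120 that stabilizes cadherins at the membrane, was at 212 and 171 CPM in control libraries and 122 and 129 CPM in eKO libraries.

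The angiogenesis list, of VEGF ligands, receptors and tip cell genes, held 25 tested genes with 17 negative and 8 positive values (median -0.18) and 0 calls by edgeR. At an unadjusted p below 0.05 there were 6 lower and 1 higher (28.0%, against 6.86% of all genes). Among the receptors, *Kdr*, the main VEGF receptor, was at 519 and 489 CPM in control libraries and 470 and 414 CPM in eKO libraries, and *Flt4*, the receptor for VEGF-C, was at 74.8 and 76.2 CPM against 46.6 and 42.4 CPM. *Nrp2*, a co-receptor, had 259 and 251 CPM against 150 and 158 CPM. For all 3 receptors the eKO libraries were the lower ones, with log2 changes of -0.14, -0.71 and -0.67 that did not pass. *Igfbp3*, a binding protein for insulin-like growth factors, was at 408 and 441 CPM in control libraries and 210 and 222 CPM in eKO libraries. Its log2 change of -0.91 had adjusted p = 0.085 by the edgeR quasi-likelihood test, Benjamini-Hochberg adjusted, and it was called in 4 of 16 alternatives, among them without eKO replicate 1 (-0.85) or eKO replicate 2 (-0.96). *Vegfa*, the ligand, was at 15.9 and 12.7 CPM in control libraries and 26.2 and 43.3 CPM in eKO libraries (log2 change 1.32, called only without eKO replicate 1, at 1.59).

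*Robo1*, a receptor for Slit proteins, was at 166 and 197 CPM in control libraries and 112 and 70.1 CPM in eKO libraries, with a log2 change of -0.94 that did not pass but did so without eKO replicate 1 (-1.27). *Robo4*, its endothelial relative, had 61.3 and 53.9 CPM against 42.2 and 42.4 CPM. *Acvrl1*, a receptor of the TGF-beta family, had 44.2 and 47.6 CPM against 20.4 and 22.1 CPM. All 3 receptors were lower in both eKO libraries, but none passed, and the log2 change of *Robo4* (-0.41) changed sign in 1 alternative. *Esm1*, secreted by tip cells, overlapped between the groups at 27.0 and 38.1 CPM against 10.2 and 28.6 CPM. Among 18 tested genes for receptor phosphatases and guidance, 14 values were negative and 4 positive (median -0.27), 6 lower (33.3%, against 6.86% of all genes) at an unadjusted p below 0.05 and 0 called by edgeR. The phosphatase *Ptprk* was at 105 and 111 CPM in control libraries and 77.2 and 40.6 CPM in eKO libraries. Its log2 change of -0.87 was called only without eKO replicate 1 (-1.33), and lay between -1.33 and -0.42 over 16 alternatives.

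In the Notch list, 13 of 15 tested genes had negative values (median -0.20), and 0 were called by edgeR, with 2 lower and 1 higher at an unadjusted p below 0.05. *Dll4*, the main Notch ligand of endothelium, was at 129 and 143 CPM in control libraries and at 69.9 and 62.7 CPM in eKO libraries. Both eKO libraries were lower, with a log2 change of -0.97 (standard error 0.22), and did not pass, with adjusted p = 0.134 by the edgeR quasi-likelihood test, Benjamini-Hochberg adjusted. Without eKO replicate 1 it did (-1.02). Of the Notch targets, *Hes1* was at 195 and 187 CPM against 125 and 78.4 CPM, and *Hey1* at 34.3 and 31.7 CPM against 59.7 and 52.6 CPM. The values of *Hes1* (log2 change -0.89) and *Hey1* (0.79) thus pointed in opposite directions, and neither passed, though *Hes1* did without eKO replicate 1 (-1.22). *Rbpj*, the nuclear partner of Notch, overlapped between the groups, at 39.2 and 69.8 CPM against 59.7 and 24.9 CPM, and its log2 change of -0.26 turned to 0.084 without control replicate 2 and 0.33 without eKO replicate 2. The Notch-related ligand gene *Dlk1* and the growth factor gene *Nrg1* had too few UMIs to be tested in capillary-type cells alone, with 1.23 and 0 CPM of each in control libraries and with 11.7 and 28.6 CPM of *Dlk1* and 8.74 and 12.9 CPM of *Nrg1* in eKO; the test of *Nrg1* against *Fabp4*-low endothelium is given below.

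Arterial and venous genes outside the rule gave 0 calls by edgeR. Of 14 arterial genes, 10 values were negative (median -0.28), with 4 lower and 1 higher at an unadjusted p below 0.05 (35.7%, against 6.86% of all genes), and of 6 venous genes 4 were negative (median -0.19), with 2 lower. *Efnb2*, the arterial ephrin, was at 274 and 333 CPM in control libraries and 210 and 175 CPM in eKO libraries, and *Gja1*, which encodes connexin 43, at 177 and 181 CPM against 125 and 118 CPM. Both were lower in the eKO libraries than in either control and did not pass (log2 changes -0.59 and -0.50). These lists concern cells from which arterial and venous cells had been removed by 4 of their genes, so they do not describe arteries or veins.

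Among 14 tested ETS factors, *Ets1* was the only call, 11 values were negative and 3 positive, and the median was -0.28. At an unadjusted p below 0.05, 2 were higher and 2 lower. *Etv4*, a relative activated by growth factor signals, was at 13.5 and 25.4 CPM in control libraries and 53.9 and 32.3 CPM in eKO libraries. *Etv1* had 14.7 and 6.35 CPM against 55.4 and 20.3 CPM, and *Etv3* had 18.4 and 34.9 CPM against 10.2 and 10.1 CPM. The log2 changes of 1.33, 1.58 and -1.15 did not pass. *Etv4* (1.70) and *Etv1* (2.21) were called without eKO replicate 2. *Etv2* and *Spi1* had 0 UMIs in capillary-type cells of all 4 libraries. Of 19 tested other transcription factors of endothelium, 0 were called by edgeR, 1 was lower at an unadjusted p below 0.05 and the median was -0.07. That gene was *Sox18*, a factor of vessel development, at 134 and 82.5 CPM in control libraries and 35.0 and 57.2 CPM in eKO libraries. Its log2 change of -1.20 had adjusted p = 0.146 by the edgeR quasi-likelihood test, Benjamini-Hochberg adjusted, and it was called in 5 of 16 alternatives, among them without control replicate 2 (-1.43) or eKO replicate 2 (-1.66).

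Basement membrane and matrix genes gave 25 tested members with 10 positive and 15 negative values (median -0.05). At an unadjusted p below 0.05 there were 6 higher and 0 lower, and 0 were called by edgeR. The study reported the secreted factors *Hmcn1*, *Slit2* and *Col18a1* as lower in eKO in its whole coronary endothelial cluster. It also found them lower in its other endothelial clusters and, by RNAscope on sections, in coronary endothelial cells. In the smaller non-cycling part tested here, with 2 libraries per group, they did not pass. *Hmcn1* (hemicentin) was at 272 and 194 CPM in control libraries and 194 and 152 CPM in eKO libraries, with a log2 change of -0.42 (standard error 0.21). *Slit2*, the ligand of Robo receptors, was at 83.4 and 44.4 CPM against 58.3 and 83.0 CPM, and *Col18a1*, the source of endostatin, was at 603 and 574 CPM against 574 and 522 CPM. The libraries of the groups overlapped or nearly met for these 3 genes, and the sign of the log2 change depended on the processing for *Slit2* (0.11, between -0.52 and 0.75 over 16 alternatives) and *Col18a1* (-0.05, between -0.11 and 0.15). *Slit2* turned to -0.15 without control replicate 2 and -0.22 without eKO replicate 2, and *Col18a1* to 0.010 without the latter. In the other endothelial classes *Hmcn1* was lower in both eKO libraries. It was at 1273 and 1074 CPM against 876 and 530 CPM in *Fabp4*-low cells, and at 300 and 317 CPM against 236 and 155 CPM in arterial- or venous-leaning cells. In cycling cells it was at 287 and 373 CPM against 238 and 192 CPM, while the groups overlapped there for *Slit2* and *Col18a1*.

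The matrix genes with the smallest p were higher in eKO without passing. *Fbn1* (fibrillin) was at 39.2 and 25.4 CPM in control libraries and 90.3 and 62.7 CPM in eKO libraries. *Fbln2* (fibulin) had 22.1 and 3.17 CPM against 40.8 and 47.9 CPM, and *Mgp*, an inhibitor of calcification, had 35.6 and 0 CPM against 69.9 and 71.9 CPM. For all 3 the eKO libraries were the higher ones, with log2 changes of 1.17, 1.51 and 1.60. Without control replicate 1, *Fbln2* (3.80) and *Mgp* (8.64, a fitted value against a library at 0) were called, without eKO replicate 1 both again (1.61 and 1.60), and without eKO replicate 2 *Fbn1* (1.42) and *Mgp* (1.54). The same genes were more abundant in *Fabp4*-low endothelium, at 344 to 394 CPM for *Fbn1*, 165 to 224 CPM for *Fbln2* and 483 to 937 CPM for *Mgp*, and the part of that class in these values was not tested.

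Metabolic lists gave no call. Of 94 tested nuclear genes of oxidative phosphorylation, 73 values were positive and 21 negative (median 0.12), and of 13 mitochondrial genes 4 were positive and 9 negative (median -0.11), with 0 calls by edgeR in either and 3 and 1 higher at an unadjusted p below 0.05. Genes with names in *Rpl* or *Rps* gave 73 positive and 19 negative values of 92 (median 0.10), with 0 calls by edgeR and 1 at an unadjusted p below 0.05. The summed levels of both nuclear lists overlapped between the groups. Oxidative phosphorylation had 27008 and 28195 CPM in control libraries and 30083 and 27984 CPM in eKO libraries. *Rpl* and *Rps* genes had 211043 and 215945 CPM against 226407 and 211406 CPM. For the mitochondrial genes the sums were lower in both eKO libraries, at 25472 and 26758 CPM against 23625 and 21941 CPM. Glycolysis had 11 of 14 positive values (median 0.20) and hypoxia 11 of 15 (median 0.28). *Slc16a3*, a lactate exporter, was at 44.2 and 44.4 CPM in control libraries and 62.6 and 92.2 CPM in eKO libraries, and *Hk1* (hexokinase) at 78.5 and 88.9 CPM against 56.8 and 47.0 CPM. Neither passed, but *Slc16a3* did without eKO replicate 1 (1.13), and both lists gave 0 calls by edgeR, with 1 higher and 1 lower gene of glycolysis and 1 higher gene of hypoxia at an unadjusted p below 0.05.

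Although *Top2a* and *Mki67* limited the cells, 22 other cell cycle genes were tested, with 19 positive and 3 negative values (median 0.32) and 0 calls by edgeR. At an unadjusted p below 0.05 there were 4 higher. The summed level of the list was 2783 and 3246 CPM in control libraries and 3059 and 4079 CPM in eKO libraries, so the groups overlapped. The limit on *Top2a* and *Mki67* counts raw UMIs and acts less strongly in shallow cells, and eKO replicate 2 was the shallowest library. The part of depth in these values was not tested. *Tyms*, which makes thymidylate, was at 41.7 and 38.1 CPM in control libraries and 69.9 and 79.3 CPM in eKO libraries, and *Cdkn1c*, an inhibitor of cyclin-dependent kinases, at 386 and 498 CPM against 454 and 1137 CPM. The groups did not overlap for *Tyms* (log2 change 0.95). They overlapped for *Cdkn1c*, whose log2 change of 0.92 was called without eKO replicate 1 (1.46). Over 16 alternatives the value for *Cdkn1c* lay between 0.12 and 1.46. Of 11 imprinted genes 9 were positive (median 0.34), with 5 higher at an unadjusted p below 0.05 (45.5%, against 6.86% of all genes) and 0 calls by edgeR. *Meg3*, a long noncoding RNA, was at 24.5 and 3.17 CPM in control libraries and 56.8 and 52.6 CPM in eKO libraries, and *Peg3*, a zinc finger gene, at 58.9 and 47.6 CPM against 119 and 79.3 CPM. *Meg3* was called in 6 of 14 alternatives, among them without control replicate 1 (4.08), eKO replicate 1 (1.60) or eKO replicate 2 (1.69), and *Peg3* without eKO replicate 2 (1.16).

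Early response and stress genes were mostly negative, with 14 of 19 values (median -0.26), 5 lower and 1 higher at an unadjusted p below 0.05 and 0 calls by edgeR. *Dusp1*, a phosphatase of MAP kinases, was at 135 and 95.2 CPM in control libraries and 67.0 and 65.5 CPM in eKO libraries, and *Btg2*, an antiproliferative early gene, at 363 and 190 CPM against 185 and 156 CPM. *Btg2* was called without control replicate 2 (-1.04) or eKO replicate 1 (-0.83). Such genes also respond to tissue dissociation, whose part was not tested. In the interferon list, 6 of 8 values were positive (median 0.07), with 2 higher and 2 lower at an unadjusted p below 0.05 (4 of 8, against 6.86% of all genes) and 0 calls by edgeR. *Ifi27* was at 12.3 and 3.17 CPM in control libraries and 29.1 and 35.0 CPM in eKO libraries, and *Bst2* (tetherin) at 163 and 121 CPM against 202 and 248 CPM, and both were called without eKO replicate 1 (1.92 and 0.82). A list of nuclear and technical RNAs had 5 of 7 positive values (median 0.12), 1 higher and 1 lower at an unadjusted p below 0.05 and 0 calls by edgeR.

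Markers of other cell types were present in the sums. The 16 cardiomyocyte genes summed to 1136 and 552 CPM in control libraries and 956 and 1429 CPM in eKO libraries, led by *Myl2* at 253, 95.2, 159 and 260 CPM, and 7 of the 9 tested outside the rule had positive values (median 0.67). *Nppa* was at 27.0 and 22.2 CPM against 51.0 and 83.9 CPM and *Tnni1* at 46.6 and 34.9 CPM against 69.9 and 133 CPM, both not called. Without eKO replicate 1 both were (1.78 and 1.70), and *Nppa* also without control replicate 2 (1.41). None of the 16 was at 0 in all libraries. The 10 fibroblast genes summed to 213 and 28.6 CPM in control libraries and 149 and 125 CPM in eKO libraries, led by *Col3a1* at 45.4, 9.52, 33.5 and 45.2 CPM. The groups overlapped for both sums, and 0 genes of these lists were called by edgeR, with 4 higher among cardiomyocyte genes and 1 lower among fibroblast genes at an unadjusted p below 0.05.

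Mural cell genes summed to 212 and 108 CPM in control libraries and 149 and 183 CPM in eKO libraries, led by *Abcc9* at 148, 66.6, 93.2 and 96.8 CPM, with the defining markers *Cspg4*, *Myh11* and *Higd1b* at 0 in all libraries. Epicardial genes summed to 142 and 98.4 CPM against 112 and 121 CPM, nearly all of it *Wt1* at 140, 95.2, 99.1 and 107 CPM, and *Krt8* was at 0. Immune genes summed to 1.23 and 15.9 CPM against 11.7 and 16.6 CPM, led by *Fcer1g* at 0, 6.35, 1.46 and 2.77 CPM. Lymphatic genes summed to 83.4 and 82.5 CPM against 56.8 and 53.5 CPM, of which *Flt4* made up 74.8, 76.2, 46.6 and 42.4 CPM. Of these 4 sums the lymphatic one separated the groups, through *Flt4*, and the tested genes numbered 3 mural, 1 epicardial, 0 immune and 1 lymphatic. Erythroid genes summed to 174 and 85.7 CPM in control libraries and 191 and 18569 CPM in eKO libraries, led by *Hbb-bs* at 73.6, 28.6, 59.7 and 6408 CPM. Their 5 tested genes had log2 changes with a median of 6.16, which rest on eKO replicate 2, and 0 were called by edgeR. *Hbb-bs* was called without control replicate 1 (6.88), control replicate 2 (5.53) or eKO replicate 1 (6.83), each a fit that still holds eKO replicate 2. The comparison without the 7 hemoglobin-rich cells gave 10 calls, and all 10 genes called with them were among these.

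The change in capillary-type cells was then compared with that in other endothelial cells of the same libraries by a test of the difference itself. Against *Fabp4*-low endothelium, 72 of 12583 genes (0.572%) differed in their change, 59 with a more positive value in capillary-type cells and 13 with a more negative one. Leaving out eKO replicate 2 gave 24 calls, 22 of them among the 72. Without control replicate 1 there were 73 with 35 among the 72, without control replicate 2 69 with 52, and without eKO replicate 1 62 with 46. With the rule applied to both classes after thinning to 3000 UMIs there were 52, of which 31 were among the 72. With total-count scaling there were 99, 70 more positive and 29 more negative. Of the 59, 48 were genes with a higher level in *Fabp4*-low cells than in capillary-type cells of the controls. Of the 72, 6 were hemoglobin genes and 5 were on the endocardial list. The shares of such genes among all 12583 were not counted, and genes could enter the test through their level in *Fabp4*-low cells alone. These counts therefore do not show an excess. DESeq2 gave 8 calls.

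The differences with the smallest p were in *Col15a1*, *Tmem108*, *Prkg1*, *Cdh11* and *S100a16*. *Col15a1*, a basement membrane collagen of capillaries, was at 189 and 235 CPM in the capillary-type cells of the controls and 224 and 176 CPM in those of eKO. In *Fabp4*-low cells it was at 3.51 and 2.99 CPM in control libraries and 23.0 and 29.0 CPM in eKO libraries. The groups overlapped in capillary-type cells and were apart in *Fabp4*-low cells, and the log2 changes differed by -3.01 (standard error 0.28), with adjusted p = 2.65e-08 by the edgeR quasi-likelihood test, Benjamini-Hochberg adjusted. *Tmem108* had 1370 and 1321 CPM in *Fabp4*-low control cells and 1009 and 952 CPM in those of eKO. Its level was thus lower in eKO in that class and higher in capillary-type cells, a difference of 2.89 (standard error 0.32) with adjusted p = 8.63e-07 by the edgeR quasi-likelihood test, Benjamini-Hochberg adjusted. With the rule after thinning to 3000 UMIs the difference was 0.72 and not called.

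*Prkg1* had 1544 and 1440 CPM in *Fabp4*-low cells of the controls and 1342 and 1316 CPM in those of eKO, and *Cdh11* had 1180 and 1056 CPM against 943 and 816 CPM. For both genes the *Fabp4*-low libraries of eKO were below the controls while the capillary-type ones were above. The log2 changes differed by 1.56 (standard error 0.20) and 2.35 (standard error 0.33), with adjusted p = 1.77e-05 and 7.24e-05 by the edgeR quasi-likelihood test, Benjamini-Hochberg adjusted; DESeq2 did not call *Cdh11*. With the rule after thinning to 3000 UMIs, *Prkg1* (0.53) was not called. Differences from arterial- or venous-leaning and from cycling cells were not called for *Tmem108*, *Prkg1* or *Cdh11*. They were 1.85 and 1.37 for *Tmem108*, 0.95 and 0.76 for *Prkg1*, and 1.03 and 0.91 for *Cdh11*. *S100a16*, a calcium-binding protein, was at 547 and 435 CPM in capillary-type cells of the controls and 392 and 430 CPM in those of eKO, against 93.0 and 88.7 CPM and 36.7 and 36.3 CPM in *Fabp4*-low cells. Its *Fabp4*-low levels were lower in eKO and the difference was 1.07 (standard error 0.15), with adjusted p = 9.15e-05 by the edgeR quasi-likelihood test, Benjamini-Hochberg adjusted.

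Of the 72, 9 had too few UMIs for the test in capillary-type cells alone and entered through their level in *Fabp4*-low cells. *Nrg1* was 1 of these, at 326 and 338 CPM in control libraries and 286 and 282 CPM in eKO libraries in *Fabp4*-low cells. In capillary-type cells it had 1, 0, 6 and 14 UMIs, so its difference of 3.86 (standard error 0.90) rests on few UMIs. The call was lost without control replicate 1 (8.74, a fitted value against a library at 0), control replicate 2 (3.37) or eKO replicate 2 (3.47), with DESeq2 (3.82) and with the rule after thinning to 3000 UMIs (1.196). The differences of *Nrg1* from arterial- or venous-leaning cells (3.20, standard error 1.14) and from cycling cells (1.58, standard error 1.23) were not called. *Dlk1*, at 96.5 and 66.1 CPM against 198 and 263 CPM in *Fabp4*-low cells, was not called in any of the 3 class comparisons (3.16, 0.33 and 2.40).

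**Figure D5:**
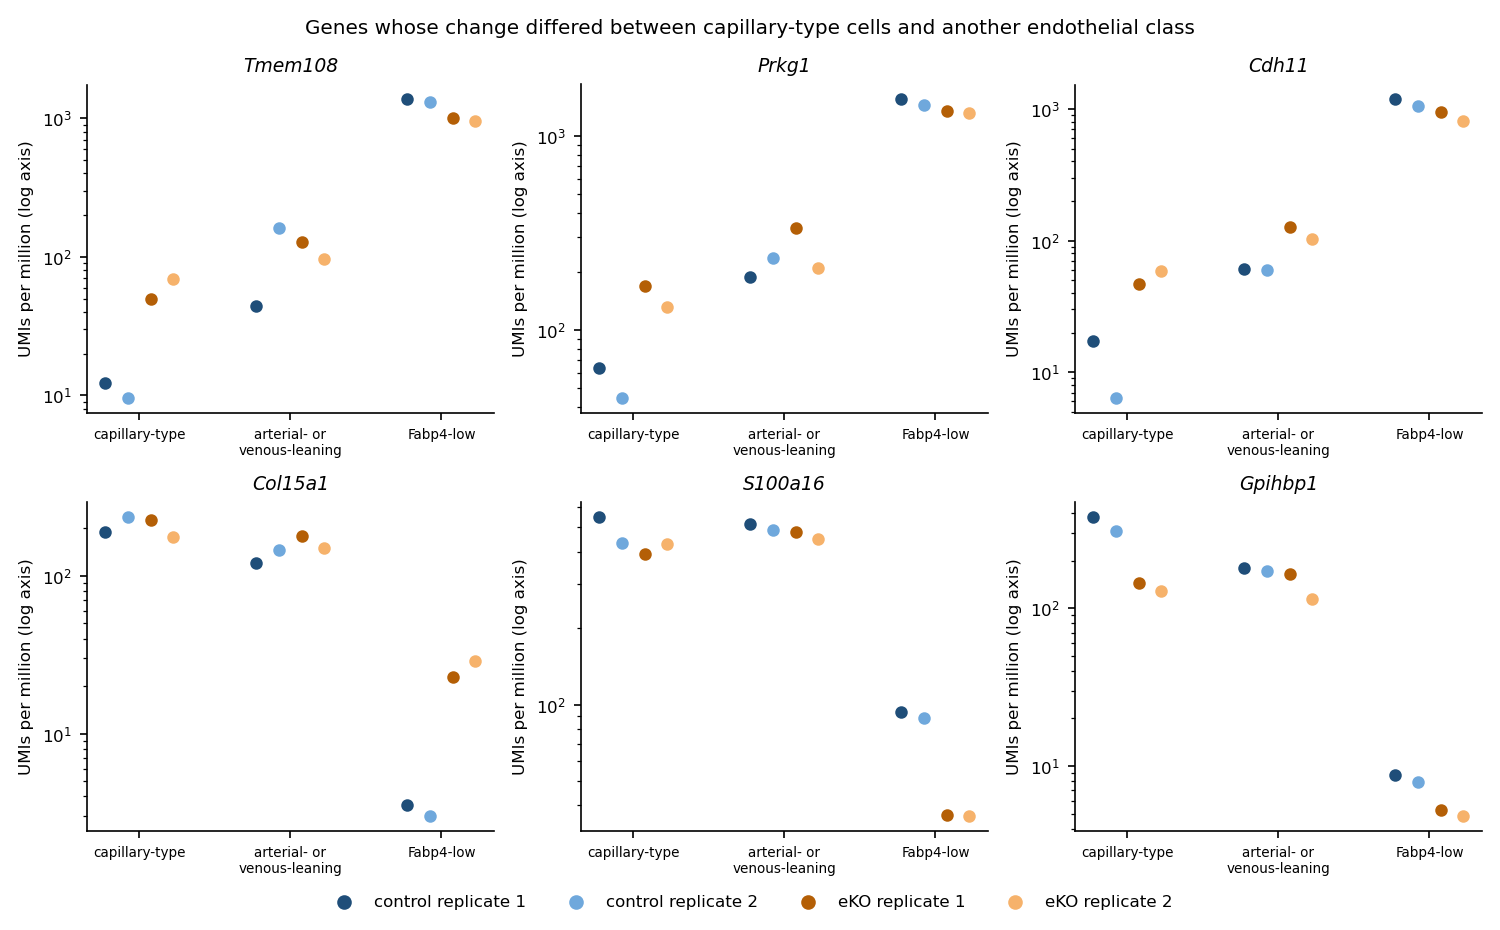
Level in CPM (log axis) of 6 genes in capillary-type cells, arterial- or venous-leaning coronary cells and *Fabp4*-low endothelium, with 1 point per library (blue, controls; orange, eKO). *Tmem108*, *Prkg1* and *Cdh11* are far higher in *Fabp4*-low cells, and there the eKO points lie below the controls, while in capillary-type cells they lie above; *Gpihbp1* separates the groups in capillary-type cells and less so in arterial- or venous-leaning cells.

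Arterial- or venous-leaning coronary cells, which met the rule but for 2 or more UMIs of the arterial or venous pair, are by their rule the closest class. Of 8601 genes, 14 (0.163%) differed in their change between these classes. Leaving out control replicate 1 gave 40 calls, 9 of them among the 14, control replicate 2 21 with 12, eKO replicate 1 13 with 7, and eKO replicate 2 11 with 5. Of the 14, 5 were hemoglobin genes, and without the 7 hemoglobin-rich cells 9 calls were left, all of them among the 14. DESeq2 gave 0 calls, with 35 genes at an unadjusted p below 0.05. With the rule applied to both classes after thinning to 3000 UMIs, edgeR gave 0 calls as well, with 12 of the 14 genes tested and 213 genes at an unadjusted p below 0.05. *Gpihbp1* was at 180 and 172 CPM in the arterial- or venous-leaning cells of the controls and at 164 and 114 CPM in those of eKO, lower in eKO by less than in capillary-type cells. The log2 changes differed by -0.99 (standard error 0.21), with adjusted p = 0.0183 by the edgeR quasi-likelihood test, Benjamini-Hochberg adjusted. The difference was no longer called without control replicate 1 (-0.87), without eKO replicate 1 (-0.79) or with the rule after thinning (-0.16). In cycling cells *Gpihbp1* was at 225 and 185 CPM in control libraries and 120 and 104 CPM in eKO libraries. Its differences from cycling cells (-0.45) and from *Fabp4*-low cells (-0.59) were not called.

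Among the other genes whose change differed from that in arterial- or venous-leaning cells was *Mecom*, a transcription factor of arterial endothelium. It was at 477 and 419 CPM in capillary-type cells of the controls and 715 and 391 CPM in those of eKO. In arterial- or venous-leaning cells it was at 829 and 915 CPM against 726 and 486 CPM. The groups overlapped in capillary-type cells, and the difference was 0.75 (standard error 0.15), with adjusted p = 0.0101 by the edgeR quasi-likelihood test, Benjamini-Hochberg adjusted. It was not called without eKO replicate 1 (0.63) or with the rule after thinning to 3000 UMIs (0.53).

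Against cycling coronary cells, which held 2 or more UMIs of *Top2a* and *Mki67*, 4 of 10204 genes (0.0392%) differed, with 0 calls without eKO replicate 2, 9 without eKO replicate 1, 6 without control replicate 1 (0 of them among the 4) and 6 without control replicate 2. These were *Hba-x*, *Apoe*, *Hist1h1b* and *Fbn2*. *Apoe* was at 155 and 54.4 CPM in the cycling cells of the controls and 120 and 240 CPM in those of eKO, so the groups overlapped there. The log2 changes differed by 1.16 (standard error 0.20), with adjusted p = 0.0144 by the edgeR quasi-likelihood test, Benjamini-Hochberg adjusted. *Hist1h1b*, a linker histone made during DNA replication, was at 6.13 and 3.17 CPM in capillary-type cells of the controls and 17.5 and 76.5 CPM in those of eKO, against 593 to 763 CPM in cycling cells, a difference of 3.33. *Fbn2*, a fibrillin, was at 54.0 and 38.1 CPM in capillary-type cells of the controls and 14.6 and 19.4 CPM in those of eKO, a difference of -2.07 from the change in cycling cells. Neither of these was called without control replicate 1 (3.95 and -1.47) or without eKO replicate 2 (1.62 and -2.17), and *Apoe* was not called without these libraries either (0.97 and 1.11). With the rule applied to both classes after thinning to 3000 UMIs, edgeR called 0 genes, with 268 at an unadjusted p below 0.05; *Hba-x* was not tested there, and the differences were -0.39 for *Apoe*, 0.38 for *Hist1h1b* and 0.0051 for *Fbn2*. The difference in *Hba-x* (5.45) was not called without control replicate 1 (4.54), eKO replicate 2 (2.49) or the 7 hemoglobin-rich cells (1.67). DESeq2 gave 0 calls, with 23 genes at an unadjusted p below 0.05.

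Since *Ets1* binds ETS motifs, the promoters of the changed genes were searched for the letters CCGGAAG and CAGGAAG on both strands. The windows were those of RefSeq (GRCm38.p6), from 250 bases before to 50 after each start site, and a gene may have several. Of 7 higher genes 5 had windows, and 1 of their 11 windows held a motif; of 3 lower genes 1 had a window, which held none. Over all genes tested, 2272 of 7835 windows (29.0%) of 6113 genes held 1 or both. The match was in a window of *Apoe*, and the capitals in the sequence of the coding strand mark the motif.
Apoe: ggggttacctcCAGGAAGgagtacgggac
These 29 bases lie at chr7:19698797-19698825 on the minus strand, and the motif ends 186 bases before the start site of that window. They overlap 6 of the 11 annotated transcripts of *Apoe*, none of its 24 exons and none of its 16 UTR segments, so within those transcripts they are intronic. The match says only that these letters are present; binding was not measured.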

How the data were processed

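The authors made the deposited matrices of UMI counts per gene and barcode with Cell Ranger 7.1.0 on mm10; the counts are whole numbers, not normalized. The study's removal of background, doublets and hemoglobin-rich cells was not repeated. Sums of each class in each library went into edgeR 4.0.16 (filterByExpr, TMM, quasi-likelihood) in R 4.3.3, tested over all genes at an adjusted p of 0.05; 14 of the 7658 genes fitted belong to the rule and are given no p. For class differences the terms were the library, the class and the interaction of class with genotype. Thinning used seed 0. Other steps used Python 3.11.15, numpy 2.4.6, pandas 2.3.3, scipy 1.17.1 and matplotlib 3.10.9. Positions are from GENCODE vM21.

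Genes named are *Ets1*, the 4 markers, 12 genes the study discusses, the 10 largest called changes per direction among genes with a mean of at least 20 CPM and groups apart (no rule genes, sex-linked genes or gene models), up to 4 genes of smallest p per list, the most abundant marker of each other cell type, 5 genes per class comparison, and the genes of the rule. From these, a part is printed. Members and lists were chosen with earlier results of these data known. Alternatives tried were a second tool (DESeq2 1.42.0), scaling by total counts, no low-count filter, each library left out, the replicate number as a block, 2 kinds of thinning and 4 stricter rules. Leaving out hemoglobin-rich cells, sex as a term and, for the class differences, the rule after thinning were added after the data were seen. In the fit with sex, the male and the female cells of a library (10 or more) were summed apart, so the units are not independent samples. With a library left out, the lone library of a group is assumed to vary like the other group.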

Additional observations from a re-analysis of the deposited data

Results flagged for a closer look

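In these genes the change between eKO and control differed between capillary-type cells and another endothelial class by the test of the interaction of class and condition in edgeR. All values are the log2 change in capillary-type cells minus that in the other class, and their causes were not tested. For *Tmem108*, *Prkg1* and *Cdh11*, differences from arterial- or venous-leaning and from cycling cells were not called. For *Gpihbp1*, those from *Fabp4*-low and from cycling cells were not called.

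Against *Fabp4*-low endothelium the differences were -3.01 for *Col15a1*, 2.89 for *Tmem108*, 1.56 for *Prkg1*, 2.35 for *Cdh11* and 1.07 for *S100a16*. Against arterial- or venous-leaning coronary cells they were 6.09 for *Hbb-bt*, 5.54 for *Hbb-bs*, 6.12 for *Hba-a1*, 5.36 for *Hbb-y*, 5.14 for *Hba-a2* and -0.99 for *Gpihbp1*. Against cycling coronary cells they were 5.45 for *Hba-x*, 1.16 for *Apoe*, 3.33 for *Hist1h1b* and -2.07 for *Fbn2*. With the rule applied to both classes after thinning to 3000 UMIs, *Hba-x* was not tested, and of the others those of *Col15a1*, *Cdh11* and *S100a16* were called; *Tmem108* was at 0.72 and *Prkg1* at 0.53 against *Fabp4*-low cells, *Gpihbp1* at -0.16 against arterial- or venous-leaning cells, and *Hist1h1b* at 0.38 and *Fbn2* at 0.0051 against cycling cells. *Apoe* turned to -0.39 there, and against arterial- or venous-leaning cells *Hbb-bt* turned to -0.19, *Hbb-bs* to -1.63, *Hba-a1* to -0.72 and *Hba-a2* to -1.62, while *Hbb-y* was at 2.94. None of the 5 differences in hemoglobin genes against arterial- or venous-leaning cells was called without eKO replicate 2, nor without 7 of its cells that held at least 1% hemoglobin; without those cells they lay between -0.62 and 0.92.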

How the results depend on the processing

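The 10 calls in capillary-type cells became 4 with DESeq2, 19 with cardiomyocyte genes below 0.2%, 6 without the cells of most UMIs, 5 after thinning to 2000 UMIs, 86 without a low-count filter, 16 with the rule after thinning to 3000 UMIs and 4 with sex as a term, and 24 to 109 with 1 library left out. With the replicate number as a block (replicate block) there were 51. Deviations of same-numbered libraries had r = -0.037 over genes. This value cannot tell whether same-numbered libraries share a litter or day, and the labels do not say, so a pairing is unknown. The 72 calls against *Fabp4*-low endothelium became 8 with DESeq2, 52 with the rule after thinning to 3000 UMIs and 24 to 73 with 1 library left out. The 14 against arterial- or venous-leaning cells became 0 with DESeq2 and with the rule after thinning to 3000 UMIs, 9 without hemoglobin-rich cells, 31 without a filter and 11 to 40 with 1 library left out. The 4 against cycling cells became 0 with DESeq2 and with the rule after thinning to 3000 UMIs, 10 without a filter and 0 to 9 with 1 library left out. The causes were not tested. Fewer genes enter after thinning, and in the fit with sex as a term.

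Of 854 log2 changes of 57 named genes over 16 alternatives, 836 kept their direction. The 18 log2 changes that turned were uncalled in both fits, while the class differences listed after them had been called in the main fit. With 0 UMIs of the cycling, arterial and venous pairs, *Rgcc* was 0.18 and *Slit2* -0.52; without control replicate 1, *Rgcc* was 0.53; with *Fabp4* at 0.3% or more, *Slit2* was -0.29. Without the cells of most UMIs, *Slit2* was -0.034 and *Col18a1* 0.048. After thinning to 2000 UMIs, *Slit2* was -0.19, *Col18a1* 0.15, *Robo4* 0.19 and *Rbpj* 0.29. With the rule after thinning to 3000 UMIs, *Slit2* was -0.36 and *Esm1* 0.31, and the shares of capillary-type cells were 55.3%, 51.1%, 54.7% and 53.6%, since fewer UMIs per cell pass the limits more often. With sex as a term, *Col18a1* was 0.013. Without control replicate 2, *Slit2* was -0.15 and *Rbpj* 0.084; without eKO replicate 2, *Slit2* was -0.22, *Col18a1* 0.010 and *Rbpj* 0.33. Against arterial- or venous-leaning cells, *Hbb-bs* was -0.019 and *Hba-a2* -0.62 without hemoglobin-rich cells, and *Hba-a2* was -0.71 without eKO replicate 2. With the rule after thinning to 3000 UMIs, the differences from arterial- or venous-leaning cells were -0.19 for *Hbb-bt*, -1.63 for *Hbb-bs*, -0.72 for *Hba-a1* and -1.62 for *Hba-a2*, and that of *Apoe* from cycling cells was -0.39 and that of *Fbn2* 0.0051. Control replicate 2 is the smallest sum, with 39 cells and 315126 UMIs. Over the leave-one-out fits the ranges were -0.69 to 0.53 for *Rgcc*, -0.22 to 0.75 for *Slit2*, -0.11 to 0.010 for *Col18a1* and -0.91 to 0.33 for *Rbpj*, and -0.71 (without eKO replicate 2) to 6.19 (without eKO replicate 1) for the *Hba-a2* difference from arterial- or venous-leaning cells.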
